A study of Homo sapiens with 16 samples.

Results

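TGFB1, TGFB2, TGFBR1, TGFBR2, TGFBR3, SMAD3, SMAD7, SKIL, PMEPA1 and TGFBI, which encode ligands, receptors, SMADs and targets of the transforming growth factor beta (TGF-beta) pathway, were followed in prostate cancer spheroids after knockdown of MED12. These 10 genes, out of 62703 in the count table, were taken by name, and 7 of them were among the 10566 genes with enough counts to be tested. TGFB2, TGFBR3 and TGFBI were too low to be tested and are given by their counts. RNA of 16 spheroid libraries was measured by BRB-seq, a multiplexed method that counts tags from the 3′ ends of transcripts.

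The spheroids were grown from 3 human prostate cancer lines. LNCaP depends on androgen and is sensitive to enzalutamide, an antiandrogen drug. 22Rv1 responds to androgen and resists enzalutamide. PC3 is insensitive to both. Cells of each line were transfected with 25 pmol of a non-targeting siRNA pool (siCtrl) or of a pool against MED12 (siMED12), kept for 3 days in 2D and then for 4 days as spheroids. All groups were in RPMI with 10% serum, so any TGF-beta in serum was shared by siCtrl and siMED12. There were 3 siCtrl libraries for each line and 3 siMED12 libraries for LNCaP, but 2 for 22Rv1 and 2 for PC3 (replicates 1 and 3). The study's methods describe its experiments in general as run in biological replicates, but the labels do not say that these libraries came from separate cultures, so p-values measure the spread between these libraries only, which may be technical.

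In TGF-beta signaling, a secreted ligand assembles the type II receptor TGFBR2 with the type I receptor TGFBR1, which phosphorylates SMAD2 and SMAD3. These bind SMAD4, enter the nucleus and change transcription of targets, several of which (SMAD7, SKIL and PMEPA1) restrain the pathway in turn. MED12 belongs to the kinase module of Mediator, the complex that links transcription factors with RNA polymerase II, and in prostate epithelium TGF-beta is known chiefly as a growth inhibitor whose control is often lost in cancer.

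The siCtrl spheroids of the lines carried these genes at different levels, and 1 of the 7 tested genes passed the threshold with siMED12, in 22Rv1. Of all tested genes, 1.84% passed with siMED12 in 22Rv1, 0.416% in LNCaP and 0% in PC3. Several members had few counts in some lines, and a missed threshold there says little. PC3 had the highest levels of TGFB1, TGFBR2 and SMAD3. 22Rv1 had the highest levels of the inhibitors SMAD7 and PMEPA1. After siMED12, PMEPA1 fell by 55.9% in 22Rv1, and no tested gene among the 10 passed the threshold in LNCaP or PC3. By edgeR's quasi-likelihood test, the PMEPA1 effect differed between 22Rv1 and LNCaP (adjusted p = 0.0192), a call lost in 5 of 18 alternatives. Between 22Rv1 and PC3 the difference did not pass (adjusted p = 0.216).

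Library totals ran from 479118 to 993807 counts (median 764494), so 3 counts, used here as the floor of detection, correspond to 3.15 to 6.22 CPM, the count scaled to library size. Floors, and the counting intervals given for ratios of low counts, cover counting error only. The confidence intervals of log2 fold changes come from the fit and include the spread between libraries. The smaller members lie near the floor. All 8 markers of luminal prostate cells were lower in PC3 than in LNCaP siCtrl spheroids, and all 8 PC3 markers were higher. Genes restricted to PC3 (53 genes) stood at 4.68% of their PC3 level in 22Rv1 siMED12 replicate 3, against 0.357% to 0.931% in the other 22Rv1 libraries. Values of 22Rv1 that depend on this library are given with it and, for several genes, without these counts. The same 53 genes stood at 1.56% in LNCaP siCtrl replicate 1, against 0.389% to 0.477% in the other LNCaP libraries. PC3 siCtrl replicate 3 held 11 genes restricted to 22Rv1 at 2.6% of their 22Rv1 level, and PC3 siMED12 replicate 3 held 4 genes restricted to LNCaP at 2.65%. In bulk RNA, fewer cells expressing a gene and less RNA per cell cannot be told apart.

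The bases before the RefSeq transcription start of 3 members are shown because these genes carried the differences described here: PMEPA1 changed with siMED12, SMAD7 is the other feedback inhibitor highest in 22Rv1, and TGFBR2 is the receptor that separated PC3 from the other lines. Sequences are from RefSeq (GRCh38.p14), end at or before the start of the annotated gene, and are read 5′ to 3′ on the gene's strand. Capitals mark any match on either strand to GTCTAGAC (the SMAD palindrome), CAGACA (part of the CAGA box) or GGCGCC (a GC-rich SMAD site). These motifs do not overlap each other in the windows shown.
PMEPA1 (chr20:57711537-57711722, minus strand): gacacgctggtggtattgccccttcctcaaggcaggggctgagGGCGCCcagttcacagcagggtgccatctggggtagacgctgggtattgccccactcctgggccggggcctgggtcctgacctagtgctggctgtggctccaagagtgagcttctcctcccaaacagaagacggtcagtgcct
SMAD7 (chr18:48950966-48951215, minus strand): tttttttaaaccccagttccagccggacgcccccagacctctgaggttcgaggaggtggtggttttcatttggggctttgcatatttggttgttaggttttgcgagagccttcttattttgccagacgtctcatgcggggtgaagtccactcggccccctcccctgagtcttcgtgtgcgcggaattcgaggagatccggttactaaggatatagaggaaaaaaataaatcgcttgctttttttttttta
TGFBR2 (chr3:30606106-30606355, plus strand): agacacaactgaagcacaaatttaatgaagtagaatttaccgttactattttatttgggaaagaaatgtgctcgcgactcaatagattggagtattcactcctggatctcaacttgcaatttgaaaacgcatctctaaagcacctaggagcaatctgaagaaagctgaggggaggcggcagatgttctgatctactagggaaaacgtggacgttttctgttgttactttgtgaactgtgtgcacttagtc
The PMEPA1 window held 1 GC-rich match, whose first base was at position -207 from the RefSeq start. The 186 bases printed for PMEPA1 stop before that start, because the annotated gene begins upstream of it. The SMAD7 and TGFBR2 windows held none of the 3 motifs. Among members not shown, SMAD3, SKIL and TGFBI had the GC-rich site and TGFB2 had CAGACA, while TGFB1, TGFBR1 and TGFBR3 had none. A match therefore did not set PMEPA1 apart. Over the 250 bases before the start of 35116 RefSeq promoters, the SMAD palindrome was found in 0.182%, CAGACA in 13.6% and GGCGCC in 16.4%, so matches to the shorter motifs are common. A match is a description of the letters and not a measured binding site.

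MED12 itself, the siRNA target, was low in every library. Its levels were 9.94, 12.9 and 11.7 CPM in the LNCaP siCtrl libraries and 6.99, 6.67 and 10.3 CPM after siMED12. These ranges overlapped, and within pairs of the same replicate number MED12 was lower in 3 of 3 (log2 fold change -0.49 with the replicate block, adjusted p = 0.801). In 22Rv1 the siCtrl libraries had 23.4, 16.7 and 19.2 CPM and the siMED12 libraries 7.42 and 8.98 CPM, without overlap. PC3 had 28.4, 8.41 and 18.8 CPM against 15.8 and 14.5 CPM, which lie within the siCtrl range. The log2 fold change of MED12 was -0.50 in LNCaP (SE 0.46, adjusted p = 0.878), -1.28 in 22Rv1 (SE 0.46, adjusted p = 0.175) and -0.22 in PC3 (SE 0.43, adjusted p = 0.987), by edgeR's quasi-likelihood test over all tested genes. The unadjusted p in 22Rv1 was 0.00836, and the mean effect over the lines was -0.67 (unadjusted p = 0.0156, adjusted p = 0.423). At this depth MED12 did not pass the threshold in any line, and the PC3 value turned positive (0.25) without siCtrl replicate 1.

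PMEPA1 (chr20:57648392-57711536, GRCh38), a membrane protein that is induced by TGF-beta, binds SMAD2 and SMAD3 and is also induced by androgen, was the best measured member. Its levels in 22Rv1 siCtrl spheroids were 308, 358 and 457 CPM, and after siMED12 they were 151 and 181 CPM. Both siMED12 libraries lay below all 3 siCtrl libraries. The log2 fold change was -1.18 (SE 0.19, 95% CI -1.57 to -0.79, adjusted p = 3.0e-04), against a share of 1.84% of all tested genes that passed the threshold in this line. The call held under all 13 alternatives, with values from -1.31 to -1.02, and leaving out siMED12 replicate 3 gave -1.31 (adjusted p = 0.00296).

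In LNCaP, PMEPA1 stood at 144, 85.9 and 83.7 CPM in siCtrl and at 126, 149 and 98.9 CPM in siMED12 spheroids. These ranges overlapped, and the log2 fold change was 0.28 (SE 0.20, 95% CI -0.13 to 0.69, adjusted p = 0.826). PC3 spheroids had 64.5, 51.5 and 60.7 CPM with siCtrl and 62.0 and 53.9 CPM with siMED12. The PC3 ranges also overlapped, and the interval of the log2 fold change ran from -0.57 to 0.58. The siMED12 effect on PMEPA1 was lower in 22Rv1 than in LNCaP by -1.46 on the log2 scale (SE 0.28, adjusted p = 0.0192), and 0.189% of all tested genes differed between these lines. That call was lost in 5 of 18 alternatives, each of which left out 1 library: without LNCaP siCtrl replicate 2 or 3, LNCaP siMED12 replicate 2, 22Rv1 siCtrl replicate 3 or 22Rv1 siMED12 replicate 1 the adjusted p was 0.0908, 0.0995, 0.0658, 0.0589 and 0.0763. Between PC3 and 22Rv1 the effects differed by 1.19 (SE 0.35, adjusted p = 0.216), which did not pass. Between PC3 and LNCaP they differed by -0.27 (95% CI -0.98 to 0.43, adjusted p = 0.995). Averaged over the 3 lines, the PMEPA1 effect was -0.30 (SE 0.13, adjusted p = 0.510).

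The levels of PMEPA1 in siCtrl spheroids fell in the order 22Rv1, LNCaP, PC3, with means of 374 ± 75.6, 105 ± 34.3 and 58.9 ± 6.68 CPM (SD, n = 3 each). The 3 groups did not overlap. PMEPA1 was higher in 22Rv1 than in LNCaP by 1.87 on the log2 scale (adjusted p = 5.2e-10), lower in PC3 than in 22Rv1 by -2.68 (adjusted p = 3.0e-13) and lower in PC3 than in LNCaP by -0.80 (adjusted p = 0.00281). The last call was lost without LNCaP siCtrl replicate 1 (-0.53, adjusted p = 0.0542). NKILA, a long noncoding RNA on the opposite strand that overlaps a PMEPA1 exon, was at 0 to 2 counts per 22Rv1 siCtrl library, and whether counting used strand is not given in the sources used here.

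**Figure D1:**
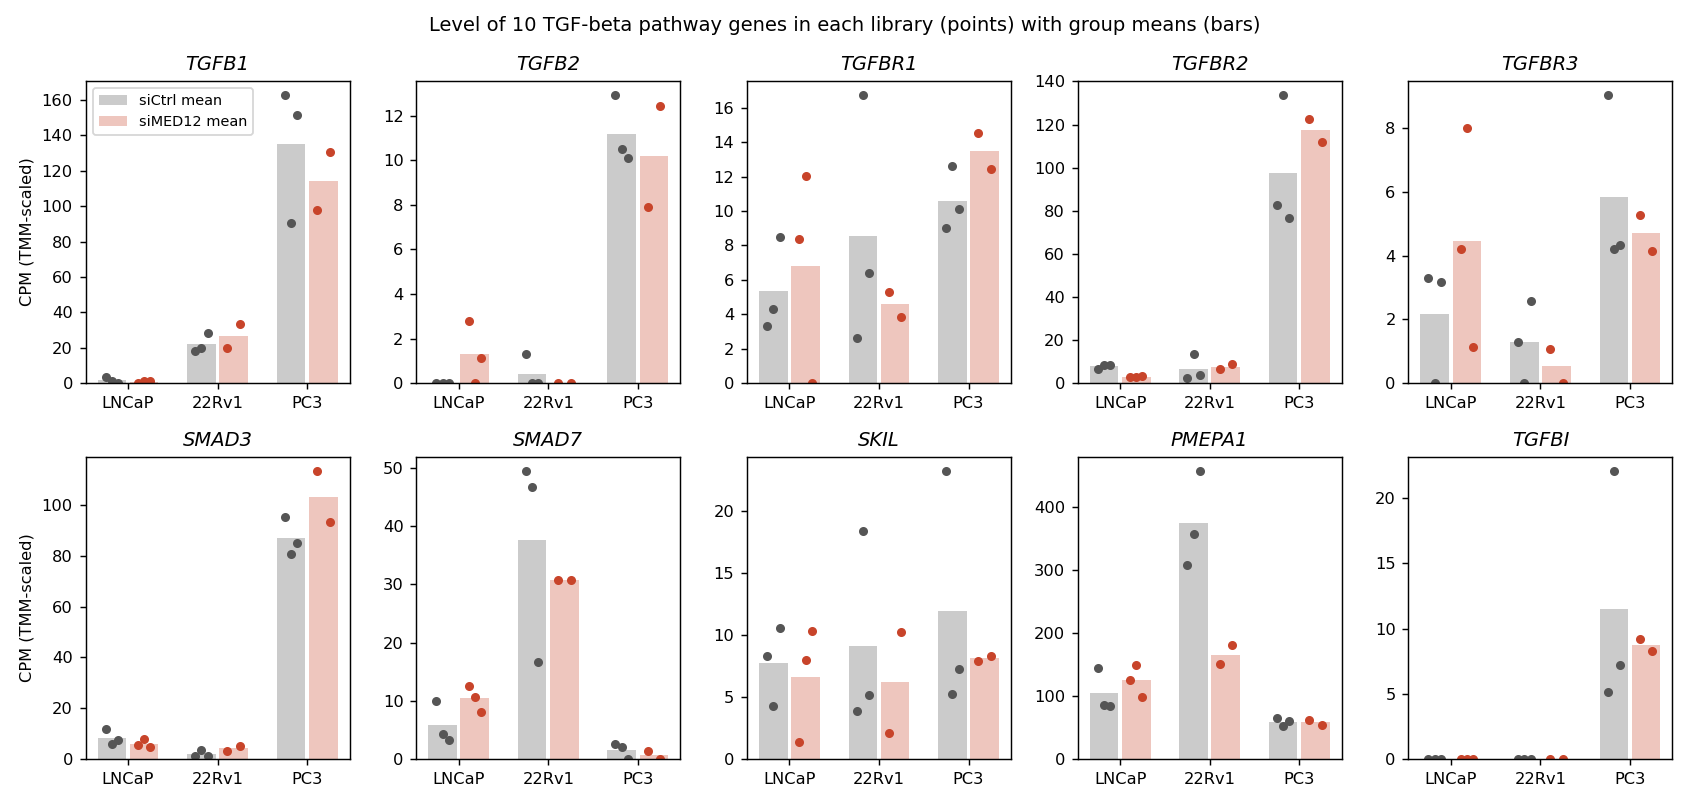
Level of the 10 genes in each library, in TMM-scaled CPM on axes that start at 0 and differ between panels, with points for libraries and bars for the mean of the siCtrl (gray) and siMED12 (red) group of each line. PMEPA1 in 22Rv1 drops from 308 to 457 CPM to 151 to 181 CPM, and TGFB1, TGFBR2 and SMAD3 are high in PC3 with either siRNA.

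Among the ligands, TGFB1, the most widely expressed isoform of TGF-beta, was highest in PC3 (chr19:41301587-41353922). LNCaP siCtrl libraries held 3.31, 1.43 and 0 CPM, 22Rv1 18.2, 20.1 and 28.2 CPM, and PC3 163, 90.4 and 152 CPM. The lines did not overlap. TGFB1 was higher than in LNCaP by 3.90 on the log2 scale in 22Rv1 (SE 0.66, adjusted p = 7.3e-06) and by 6.47 in PC3 (SE 0.44, adjusted p = 2.6e-15), and higher in PC3 than in 22Rv1 by 2.57 (SE 0.26, adjusted p = 1.0e-10). The LNCaP level rests on 3 counts, and the ratio of pooled counts was 16.7 for 22Rv1 (95% counting interval 5.40 to 84.1) and 97.9 for PC3 (33.2 to 477). After siMED12 it was at 0, 1.33 and 1.15 CPM in LNCaP, 20.1 and 33.3 CPM in 22Rv1, and 97.6 and 131 CPM in PC3. None of these ranges was separate from that of its siCtrl group. The log2 fold changes were -0.56, 0.23 and -0.25, with adjusted p from 0.867 to 0.978, and the LNCaP value rests on 0 to 2 counts a library. Subtracting carried-over counts took TGFB1 from 2 counts to 1 in LNCaP siCtrl replicate 1 and from 26 to 21 in 22Rv1 siMED12 replicate 3. Exons of HNRNPUL1, on the opposite strand, overlap those of TGFB1, and HNRNPUL1 had a mean of 84.5 CPM in LNCaP siCtrl libraries, where TGFB1 was at 1.58 CPM.

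TGFB2, a second TGF-beta isoform (chr1:218345336-218444619), was counted 27 times over the PC3 siCtrl libraries (10, 10 and 7 counts). It was at 0 in all LNCaP siCtrl libraries and had 1 count in 22Rv1 siCtrl. The pooled PC3 level was at least 8.36-fold higher than in LNCaP against a floor of 3 counts over the group, and 24.0-fold that of 22Rv1 (95% counting interval 3.95 to 981). PC3 siMED12 libraries had 6 and 6 counts, LNCaP siMED12 2, 0 and 1, and 22Rv1 siMED12 0 in both, which leaves no change with siMED12 detectable at this depth.

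Among the receptors, TGFBR2 (chr3:30606601-30694142), which binds the ligand, separated PC3 from both other lines. PC3 siCtrl libraries had 82.6, 134 and 76.6 CPM, LNCaP 6.63, 8.59 and 8.48 CPM, and 22Rv1 2.60, 13.4 and 3.85 CPM. LNCaP and 22Rv1 overlapped, and neither overlapped PC3. TGFBR2 was higher in PC3 by 3.61 than in LNCaP (SE 0.31, adjusted p = 1.9e-11) and by 4.00 than in 22Rv1 (SE 0.34, adjusted p = 9.7e-12). Between 22Rv1 and LNCaP the log2 difference was -0.39 (95% CI -1.56 to 0.78, adjusted p = 0.621).

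After siMED12, TGFBR2 was at 2.80, 2.67 and 3.45 CPM in LNCaP, all below the siCtrl libraries. These are 2, 2 and 3 counts against 4, 6 and 8, and the log2 fold change of -1.37 (SE 0.66, 95% CI -2.71 to -0.03) did not pass (unadjusted p = 0.0452, adjusted p = 0.660). In 22Rv1 the siMED12 libraries had 6.36 and 8.98 CPM, within the siCtrl range, with a log2 fold change of 0.31 (adjusted p = 0.909). Without the counts carried over into replicate 3, this value was -0.04. PC3 siMED12 libraries had 123 and 112 CPM, also within the siCtrl range (log2 fold change 0.25, 95% CI -0.20 to 0.69, adjusted p = 0.978).

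TGFBR1 (chr9:99104038-99154192), the kinase that phosphorylates SMAD2 and SMAD3, was low in all groups. Its siCtrl libraries had 3.31, 4.30 and 8.48 CPM in LNCaP, 2.60, 16.7 and 6.42 CPM in 22Rv1, and 9.03, 12.6 and 10.1 CPM in PC3. The siMED12 libraries had 8.39, 12.0 and 0 CPM in LNCaP, 5.30 and 3.85 CPM in 22Rv1, and 14.5 and 12.4 CPM in PC3. Ranges with siCtrl and siMED12 overlapped in each line, PC3 siCtrl libraries lay above those of LNCaP, and no comparison of TGFBR1 passed the threshold (PC3 against LNCaP, log2 difference 0.88, adjusted p = 0.221). The siMED12 log2 fold changes were 0.16 in LNCaP (95% CI -1.23 to 1.54), -0.76 in 22Rv1 (95% CI -2.28 to 0.77) and 0.35 in PC3 (95% CI -0.84 to 1.53), intervals that leave room for changes of more than 1 log2 unit. TGFBR3, or betaglycan, a co-receptor that presents the ligand (chr1:91680343-91906335), had 5, 3 and 14 counts over the siCtrl libraries of LNCaP, 22Rv1 and PC3. Its PC3 level was 2.60-fold that of LNCaP (95% counting interval 0.885 to 9.22) and 4.14-fold that of 22Rv1 (1.16 to 22.5). LNCaP siMED12 libraries had 3, 6 and 1 counts, 22Rv1 1 and 0, and PC3 4 and 2.

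SMAD3 (chr15:67063763-67195173), the receptor-activated SMAD that binds DNA, was lowest in 22Rv1 and highest in PC3. LNCaP siCtrl libraries held 11.6, 5.73 and 7.42 CPM, 22Rv1 1.30, 3.34 and 1.28 CPM, and PC3 95.5, 81.0 and 85.2 CPM, with no overlap between lines. SMAD3 was higher in PC3 by 3.41 than in LNCaP (SE 0.27, adjusted p = 1.3e-12) and by 5.42 than in 22Rv1 (SE 0.37, adjusted p = 2.5e-14). It was lower in 22Rv1 than in LNCaP by -2.01 (SE 0.63, adjusted p = 0.00955), a value that rests on 4 counts in 22Rv1 and 18 in LNCaP and whose call was lost without 22Rv1 siCtrl replicate 3 (adjusted p = 0.0502). With siMED12, SMAD3 was at 5.60, 8.01 and 4.60 CPM in LNCaP, 3.18 and 5.13 CPM in 22Rv1, and 113 and 93.3 CPM in PC3. The ranges overlapped in each line. The log2 fold changes were -0.41, 1.06 and 0.27 (adjusted p = 0.905, 0.643 and 0.975), and the 22Rv1 value was 0.32 once the carried-over counts were subtracted.

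SMAD7 (chr18:48919853-48950965), the inhibitory SMAD that blocks the type I receptor, showed the reverse order to SMAD3 between 22Rv1 and the other lines. Its siCtrl levels were 49.5, 46.8 and 16.7 CPM in 22Rv1, 9.94, 4.30 and 3.18 CPM in LNCaP, and 2.58, 2.10 and 0 CPM in PC3. None of the 3 groups overlapped. SMAD7 was higher in 22Rv1 than in LNCaP by 2.75 (SE 0.45, adjusted p = 5.8e-06) and lower in PC3 than in 22Rv1 by -4.35 (SE 0.56, adjusted p = 4.1e-08). Between PC3 and LNCaP the difference of -1.60 did not pass (SE 0.86, adjusted p = 0.116), although limma on log2 CPM called it (-0.99, adjusted p = 0.0374).

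After siMED12, SMAD7 had 12.6, 10.7 and 8.05 CPM in LNCaP, 30.7 and 30.8 CPM in 22Rv1, and 1.32 and 0 CPM in PC3. All of these ranges overlapped those of siCtrl, although within LNCaP pairs of the same number SMAD7 was higher in 3 of 3 (0.88 with the replicate block, adjusted p = 0.646). The log2 fold changes were 0.92 (95% CI -0.26 to 2.10, adjusted p = 0.786), -0.26 (95% CI -0.94 to 0.41, adjusted p = 0.819) and -0.91 (95% CI -4.05 to 2.24, adjusted p = 0.982). SKIL (chr3:170357342-170396835), or SnoN, which represses SMAD targets, overlapped between all 6 groups. Its levels were 8.28, 4.30 and 10.6 CPM in LNCaP siCtrl, 3.90, 18.4 and 5.13 CPM in 22Rv1 siCtrl, and 23.2, 5.26 and 7.22 CPM in PC3 siCtrl libraries. With siMED12 they were 1.40, 8.01 and 10.3 CPM in LNCaP, 2.12 and 10.3 CPM in 22Rv1, and 7.91 and 8.30 CPM in PC3. The siMED12 log2 fold changes were -0.22, -0.52 and -0.52, with intervals from -1.58 to 1.14, -2.06 to 1.01 and -1.95 to 0.92, and no SKIL difference between lines passed.

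TGFBI (chr5:136028988-136063818), an extracellular matrix protein named for its induction by TGF-beta, was at 0 counts in all 11 LNCaP and 22Rv1 libraries. The PC3 libraries had 4, 21 and 5 counts with siCtrl and 7 and 4 with siMED12. Replicate 2 of PC3 siCtrl was the highest, and both siMED12 libraries lay within the siCtrl range of 5.16 to 22.1 CPM. Over the siCtrl groups PC3 was at least 9.28-fold higher than LNCaP and at least 8.87-fold higher than 22Rv1, against a floor of 3 counts over the group. Replicate 2 held 21 of the 30 counts, and without it these bounds were 4.59-fold and 4.39-fold. When all genes with a count were tested, TGFBI and TGFB2 passed in PC3 against LNCaP (adjusted p = 1.2e-07 and 4.8e-07) and against 22Rv1 (adjusted p = 2.0e-07 and 1.5e-05), whereas TGFBR3 did not (adjusted p = 0.203 and 0.0694).

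Counted over the 7 tested members, siCtrl spheroids of 22Rv1 and LNCaP differed in 4 (3 higher and 1 lower in 22Rv1), PC3 and LNCaP in 4 (3 higher and 1 lower in PC3) and PC3 and 22Rv1 in 5 (3 higher and 2 lower in PC3). Of all tested genes, 43.2%, 54.7% and 54.9% passed in the same comparisons, so these shares are near the background of lines that differ in a large part of their transcriptome. Comparisons that use the same siCtrl group are not independent of each other.

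**Figure D2:**
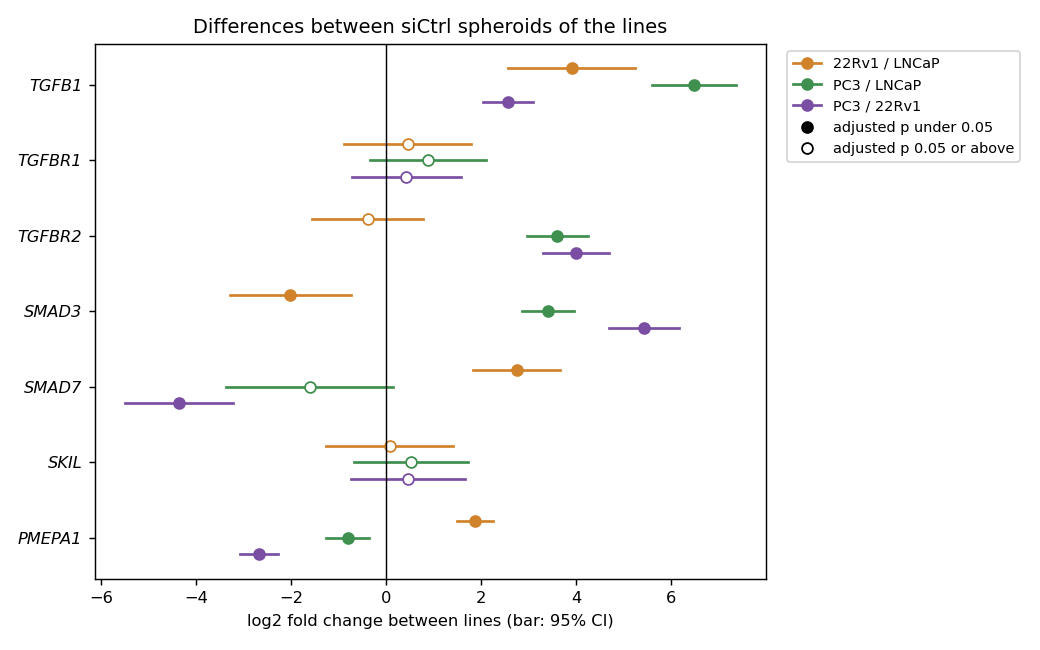
Log2 fold changes between siCtrl spheroids of the lines for the 7 tested genes, with 95% confidence intervals as bars and filled points where the adjusted p was under 0.05. TGFB1, TGFBR2 and SMAD3 lie to the right for PC3 (2.57 to 6.47), SMAD7 and PMEPA1 to the left for PC3 against 22Rv1 (-4.35 and -2.68), and TGFBR1 and SKIL have open points throughout.

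For siMED12, 0 of the 7 members passed in LNCaP, where 0.416% of all tested genes did, and 1 had an unadjusted p under 0.05 (TGFBR2). In 22Rv1, 1 of 7 passed, beside 1.84% of all tested genes. In PC3, 0 of 7 members and 0% of all genes passed, and no member had an unadjusted p under 0.05, although 527 genes did. Limma called 1 gene in PC3 and DESeq2 none, and neither tool called a member in LNCaP or PC3. The median log2 fold change of the 7 members was -0.22 in LNCaP, -0.26 in 22Rv1 and 0.003 in PC3, beside medians over all tested genes of -0.004, 0.006 and -0.04. For the mean effect over the lines, 0 of 7 passed (0.265% of all genes), 1 having an unadjusted p under 0.05 (PMEPA1). The siMED12 effect differed between lines for PMEPA1 only in the comparison of 22Rv1 with LNCaP. Of the 7 members 0 passed for PC3 against LNCaP (0.0284% of all genes; TGFBR2 had an unadjusted p of 0.026) and 0 for PC3 against 22Rv1 (0.0946%; PMEPA1 had an unadjusted p of 0.00173).

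**Figure D3:**
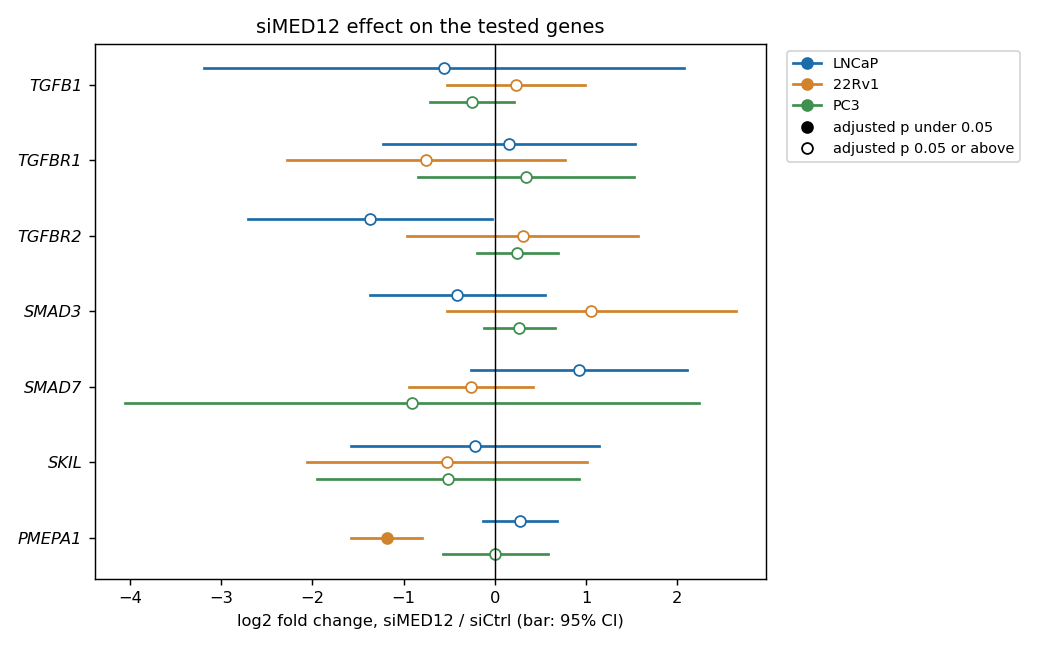
Log2 fold changes of siMED12 against siCtrl for the 7 tested genes in each line, with 95% confidence intervals as bars and filled points where the adjusted p was under 0.05. PMEPA1 in 22Rv1 (-1.18) is the only filled point, and the low-count genes have the widest intervals, as SMAD7 in PC3 (-4.05 to 2.24).

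Other genes of the superfamily (98 genes in 7 lists) were read in the same fits. Among TGF-beta induced targets, 2 of 22 tested genes fell in 22Rv1, 1 fell in LNCaP and 0 changed in PC3, with list medians of 0.12, -0.29 and -0.04 on the log2 scale. Of all tested genes 1.84%, 0.416% and 0% passed in the same comparisons, and 39 of the 44 genes called in LNCaP were lower with siMED12. The genes that fell in 22Rv1 were FN1, the matrix protein fibronectin, and ANGPTL4, a secreted inhibitor of lipoprotein lipase. FN1 was at 284, 481 and 429 CPM with siCtrl and at 122 and 195 CPM with siMED12, without overlap (log2 fold change -1.33, SE 0.20, adjusted p = 1.8e-04). This call held under all 13 alternatives. ANGPTL4 was at 58.6, 88.6 and 64.2 CPM against 31.8 and 25.7 CPM, also without overlap (log2 fold change -1.26, SE 0.27, adjusted p = 0.00612), and was not called by limma (adjusted p = 0.142), by DESeq2 (0.264) or without siMED12 replicate 3 (0.0909). In LNCaP, TSC22D1, a leucine zipper protein, fell from 300, 380 and 353 CPM to 203, 160 and 216 CPM (log2 fold change -0.83, SE 0.15, adjusted p = 0.00293). Its call was lost without siCtrl replicate 2 (adjusted p = 0.0634) or siMED12 replicate 2 (0.0681).

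Among BMP ligands and targets, 2 of 7 tested genes fell in 22Rv1 (list median -0.59), and 0 of 7 changed in LNCaP (0.26) and PC3 (-0.09). Of all tested genes, 1.84% passed in 22Rv1, 0.416% in LNCaP and 0% in PC3. BMP2, a ligand of the BMP branch, was at 180, 214 and 313 CPM with siCtrl and 122 and 141 CPM with siMED12 in 22Rv1 (log2 fold change -0.85, SE 0.19, adjusted p = 0.0111). ID4, an inhibitor of basic helix-loop-helix factors, was at 314, 276 and 259 CPM against 148 and 180 CPM (log2 fold change -0.79, SE 0.19, adjusted p = 0.0210). Neither gene overlapped between groups. Both calls were lost with limma (adjusted p = 0.420 for BMP2 and 0.584 for ID4), with DESeq2 (0.267 and 0.182) and without siMED12 replicate 1 (0.215 and 0.315). BMP2 also lost its call without siCtrl replicate 3 (0.138), and ID4 without siCtrl replicate 1 (0.0853) and under edgeR's legacy fit (0.0527).

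The other lists held no gene that passed with siMED12 in the main fit, which does not pair libraries by replicate number. This was so for 3 tested TGF-beta and activin ligands (medians 1.13, 0.28 and 0.35 in LNCaP, 22Rv1 and PC3), 8 genes of latency and activation (0.34, 0.22 and -0.02), 5 other receptors (0.09, -0.32 and 0.03), 7 other SMADs and anchors (-0.003, -0.05 and 0.19) and 15 negative regulators (-0.37, -0.22 and 0.05). With genes at 3 counts or fewer in both groups left out, the ligand median was 0.44 in LNCaP (2 genes) and -0.63 in 22Rv1 (1 gene), and the other medians of the 7 lists kept their sign. BAMBI, a pseudoreceptor that blocks type I receptors, belongs to the last list and is named here after its values were seen. It was at 131, 145 and 146 CPM in LNCaP siCtrl libraries and 69.9, 54.7 and 70.1 CPM after siMED12, without overlap (log2 fold change -1.12, SE 0.32, adjusted p = 0.174). SMAD6, an inhibitory SMAD also named after its values were seen, separated in the other direction. It was at 8.28, 4.30 and 6.36 CPM with siCtrl and between 12.6 and 17.2 CPM with siMED12 in LNCaP, without overlap (log2 fold change 1.28, adjusted p = 0.386), and at 2.60, 1.67 and 2.57 CPM against 6.36 and 8.98 CPM in 22Rv1 (1.63, adjusted p = 0.335), where siCtrl libraries held 1 or 2 counts. Both genes were picked among many, so their separation is not read as a change in itself. With the replicate number as a block, BAMBI passed in LNCaP (adjusted p = 2.3e-05) and in 22Rv1 (0.00209), and SMAD6 in neither (0.296 and 0.438). Other listed genes passed with the block and not in the main fit. Among them, RHOB, a target, rose (0.52) and the luminal marker KLK3 fell (-0.45) in LNCaP, and ID1 (-0.54) and KLK2 (-1.29) fell in 22Rv1. The same replicate block raised the number of genes called in LNCaP from 44 to 117 and changed no member's call there.

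**Figure D4:**
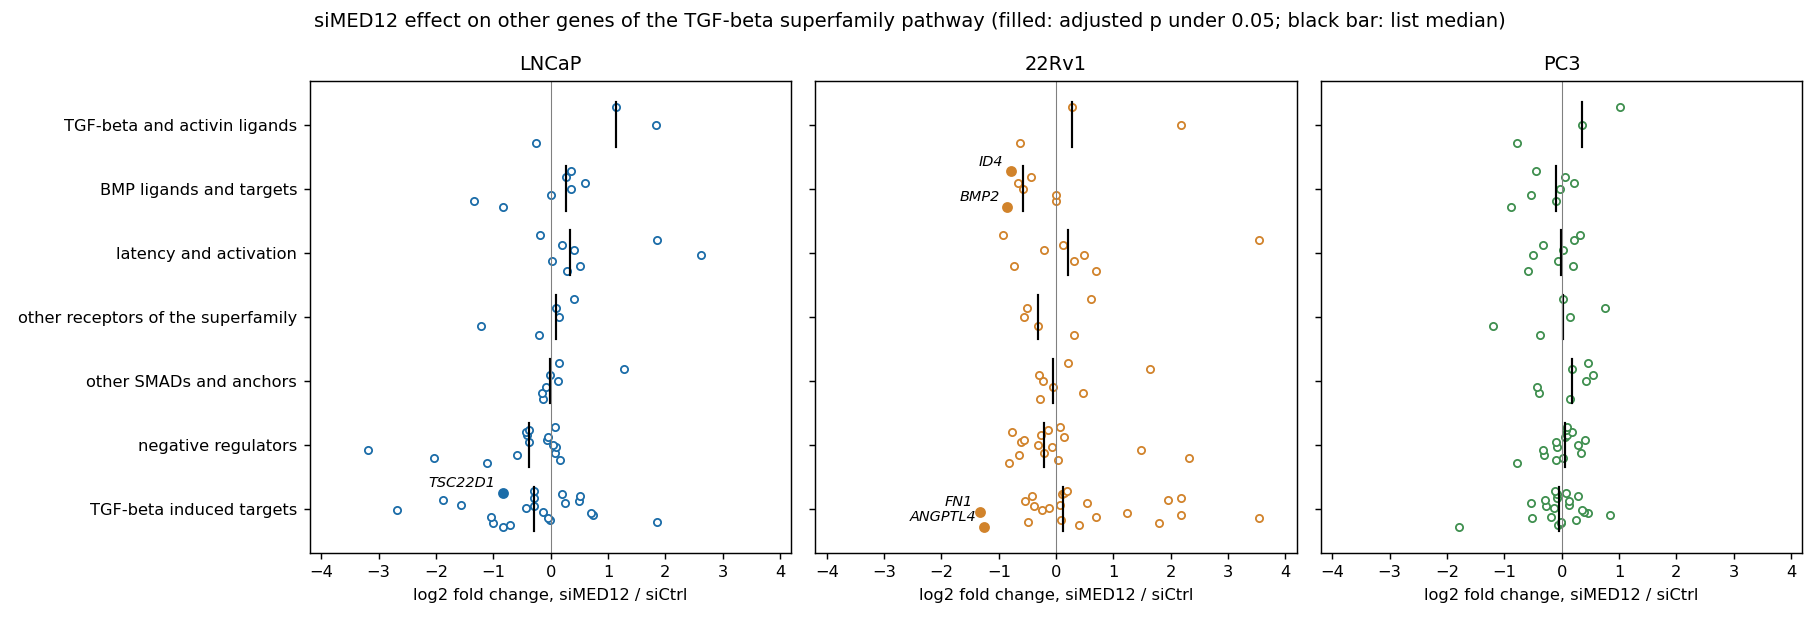
Log2 fold changes of siMED12 against siCtrl for the tested genes of the 7 lists in each line, 1 point a gene, filled and named where the adjusted p was under 0.05, with the list median as a black bar. Filled points are ANGPTL4, FN1, BMP2 and ID4 in 22Rv1 and TSC22D1 in LNCaP, all left of 0, and PC3 has none.

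Summed over 8 luminal markers, levels were 6205 to 6950 CPM in LNCaP siCtrl and 4684 to 5485 CPM in LNCaP siMED12 spheroids, and 1 of 8 passed (KLK2, an androgen-induced protease, log2 fold change -0.89, adjusted p = 0.0113). That call was lost with limma, with DESeq2 and without siCtrl replicate 2 or 3 or siMED12 replicate 2. Of all tested genes, 0.416% passed in LNCaP. The sums were 798 to 883 CPM and 745 to 762 CPM in 22Rv1, and 106 to 150 CPM and 91.0 to 253 CPM in PC3, with no marker passing. In PC3 siMED12 libraries KLK3 was at 6.59 and 58.1 CPM and KLK2 at 3.96 and 45.6 CPM. The higher values were in replicate 3, where genes restricted to LNCaP stood at 2.65% of their LNCaP level. The part of carried-over counts in this range was not tested. Over 8 PC3 markers, 22Rv1 libraries summed to 1357 to 1451 CPM with siCtrl and to 2740 to 2851 CPM with siMED12, where PMEPA1 and FN1 fell. Most of this sum was S100A10, and the other 7 markers summed to 145 to 169 CPM with siCtrl and 142 to 281 CPM with siMED12, which overlap. S100A10 averaged 1264 CPM in 22Rv1 siCtrl and 1659 CPM in PC3 siCtrl libraries, so it hardly sets PC3 apart from 22Rv1. S100A10, which binds annexin A2, rose in both siMED12 libraries (1.03, SE 0.12, adjusted p = 1.9e-06), as did CAV1, the caveolae protein (1.64, SE 0.31, adjusted p = 0.00206), although CAV1 was not called without siMED12 replicate 3 (1.22, adjusted p = 0.116) and was 1.39 (adjusted p = 0.0191) with carried-over counts subtracted. LNCaP libraries lay between 85.4 and 201 CPM and PC3 between 3938 and 4609 CPM over this list. No marker was at 0 in a whole group, and the part of these markers in the PMEPA1 and FN1 values was not tested. PMEPA1 in 22Rv1 was -1.16 (adjusted p = 5.1e-04) after the carried-over counts were subtracted.

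Of all tested genes, 54.7% passed between PC3 and LNCaP siCtrl spheroids and 43.2% between 22Rv1 and LNCaP. The list counts below stand beside these shares. Between siCtrl spheroids, 16 of 22 TGF-beta induced targets were higher and 5 lower in PC3 than in LNCaP (list median 2.92, beside 0.05 over all tested genes), among them CDH2, N-cadherin (53 counts against 0, at least 16.4-fold higher in pooled counts). In 22Rv1 against LNCaP, 5 were higher and 8 lower (median -0.71, beside 0 over all tested genes), led by CDH2 (at least 16.4-fold) and ANGPTL4 (148 counts against 2, ratio 77.5, 95% counting interval 21.1 to 646). Of 3 tested ligands, PC3 was higher than LNCaP in 2, the activin subunits INHBA (76 counts against 0, at least 23.5-fold) and INHBB (67 counts against 2, ratio 31.0, counting interval 8.26 to 261), and 22Rv1 in 0.

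Of the 7 BMP ligands and targets, 5 were higher and 1 lower in PC3 than in LNCaP, with BMP7 (at least 11.4-fold) and BMP4 (75 counts against 3, ratio 23.2, counting interval 7.63 to 115) ahead, and 5 were higher in 22Rv1, led by BMP2 (510 counts against 2, ratio 267, counting interval 73.5 to 2211) and ID4 (log2 difference 6.09). Of 8 latency and activation genes, PC3 was higher in 3 and lower in 2, with MMP14, a membrane protease (at least 26.9-fold), and LTBP1, which anchors latent TGF-beta (at least 18.5-fold), in front. 22Rv1 was higher in 3 and lower in 1, the lower being THBS1, an activator of latent TGF-beta (14.4 ± 3.45 against 275 ± 6.74 CPM, SD, n = 3 each), and LTBP1 was at least 2.44-fold higher (7 counts against 0), a call lost without LNCaP siCtrl replicate 2 or 3 or 22Rv1 siCtrl replicate 3 (adjusted p = 0.0533, 0.0741 and 0.0907). Of 5 other receptors, PC3 was higher in 1 and lower in 3 and 22Rv1 lower in 2, with BMPR1B lower in both (-2.69 and -2.53), ACVR2B lower in PC3 (-2.21) and BMPR2 in 22Rv1 (-2.38). These counts stand beside 54.7% of all tested genes passing in PC3 against LNCaP and 43.2% in 22Rv1 against LNCaP.

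Of 7 tested genes of other SMADs and anchors, SMAD4, the common partner, was higher in 22Rv1 (1.33, adjusted p = 2.6e-05) and lower in PC3 (-1.15, adjusted p = 0.00344) than in LNCaP, and SMAD1, of the BMP branch, was higher in PC3 (2.56, adjusted p = 6.3e-08). In all, 2 of this list were higher in PC3 (SMAD1 and the anchor HGS) and 2 lower (SMAD2 and SMAD4). Of 15 negative regulators, 8 were higher and 2 lower in PC3, led by the secreted antagonists FST (334 ± 96.9 against 4.70 ± 5.98 CPM) and NOG (191 counts against 3, ratio 59.0, counting interval 19.9 to 288). In 22Rv1, 5 were higher and 3 lower, with TGIF1, a repressor of SMAD targets (-1.57, adjusted p = 1.7e-05), and FSTL3, which binds activin (1.37, adjusted p = 0.0123), named as the widest apart. The FSTL3 call was lost without LNCaP siCtrl replicate 1 (adjusted p = 0.056) or 22Rv1 siCtrl replicate 2 (0.0786). For these lists too, the background was 54.7% of all tested genes for PC3 and 43.2% for 22Rv1.

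The genes whose profile over the 16 libraries lay nearest to a member were found by the mean absolute difference of centered log2 CPM among 6720 genes averaging 20 CPM or more. For PMEPA1 these were TEX264 (0.23 log2 units) and CPSF4 (0.28). TGFBR2 was nearest to HMGA1 (0.33) and LOXL1-AS1 (0.34), SMAD3 to OPN3 (0.30) and ACTN1 (0.31), and TGFB1 to NME4 and RAC2 (0.37 and 0.38). The 16 points of each profile come from 3 lines and are not independent.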

How the data were processed

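The authors deposited raw counts per gene for 16 BRB-seq libraries, aligned with STARsolo to GRCh38.p13 with Gencode gene models, and a second table of log2 CPM made with edgeR. The deposited log2 CPM values could be recomputed from the counts for the same 10566 genes. Whether molecular identifiers were collapsed or strand was used is not given in the sources used here. Groups were taken from the sample labels.

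Counts were fitted in 1 model of 6 group means with edgeR 4.0.16 (R 4.3.3, TMM scaling, filterByExpr with a minimum count of 10 and total of 15, bias-adjusted quasi-likelihood F-tests, 2-sided). P-values were adjusted over all 10566 genes by the Benjamini-Hochberg method with a threshold of 0.05, and SEs were taken as the log2 fold change divided by the root of F. CPM were TMM-scaled. The fit was also run on simulated data, in which only genes with more counts were changed and libraries had neither pairing nor carried-over counts. That run therefore says nothing about changes in the low-count members. Kept genes held 97.9% to 98.6% of counts.

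Alternatives were RLE scaling, no filter, compared groups only, a replicate block, subtraction of carried-over counts, limma 3.58.1, DESeq2 1.42.0 and leaving out each library. The legacy edgeR fit, and leaving out libraries from pooled levels or S100A10 from the marker sum, were added after seeing the data. Carried-over counts were estimated from genes of at least 50 CPM in 1 line and at most 1% of that level elsewhere. Libraries of a group differed by 1.6 to 3.43 times the variance that sampling gives, so none was counted as a duplicate. Same-numbered siCtrl and siMED12 libraries of LNCaP deviated together (r = 0.177, 0.132 and 0.135 over 6720 genes), so numbers pair LNCaP libraries. The main fit did not use this pairing, and values that used it are marked as with the replicate block. With 2 pairs each, 22Rv1 (0.19 and 0.253) and PC3 (0.117 and 0.0787) could not meet the same criterion.

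The members and the lists (TGF-beta and activin ligands, BMP ligands and targets, latency and activation, other receptors, other SMADs and anchors, negative regulators, TGF-beta induced targets, luminal markers, PC3 markers) were chosen with earlier results of these data known. Named are all members, MED12, list genes called for siMED12, the 2 genes per list farthest apart among those called in PC3 or 22Rv1 against LNCaP, and the 2 nearest profiles of members with a mean of at least 20 CPM. Some genes that these rules cover are not reported here. Promoters matched for 10 of 10 members.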

Additional observations from a re-analysis of the deposited data

Results flagged for a closer look

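The siMED12 effect differed between lines, by a test of the difference itself, for 4 genes among those described. The effect on PMEPA1 was lower in 22Rv1 (-1.18) than in LNCaP (0.28) by -1.46 on the log2 scale (edgeR quasi-likelihood test, adjusted p = 0.0192), and this call was lost in 5 of 18 alternatives. FN1 had an effect of -1.33 in 22Rv1 and of 0.40 in PC3, a difference of 1.73 (PC3 minus 22Rv1, adjusted p = 0.0339). S100A10 rose in 22Rv1 by 1.03, with effects of -0.05 in LNCaP and -0.07 in PC3, and differed by 1.08 (22Rv1 minus LNCaP, adjusted p = 0.0450) and by -1.11 (PC3 minus 22Rv1, adjusted p = 0.00257). CAV1 rose in 22Rv1 by 1.64, with an effect of -0.25 in PC3, a difference of -1.89 (PC3 minus 22Rv1, adjusted p = 0.0101). The CAV1 call in 22Rv1 was lost without siMED12 replicate 3, the library with counts carried over from PC3 (1.22, adjusted p = 0.116), and was 1.39 (adjusted p = 0.0191) with those counts subtracted. CAV1 is a marker of PC3 cells.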

How the results depend on the processing

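The PMEPA1 call in 22Rv1 and the FN1 and S100A10 calls there held under all 13 alternatives. Of the values recomputed for the members, MED12 and the genes named by the rule, 1108 kept their direction and side of the threshold, 32 lost the call, 1 gained it and 22 changed sign, none of these 22 being a called value. Genes named after their values were seen are not in these numbers, nor are comparisons that the rule does not name, such as KLK2 in 22Rv1 and KLK3 in LNCaP. Some of these, with BAMBI, gained a call with the replicate block. The cause of these shifts was not tested. Members near 3 counts a library are limited by depth, and a missed threshold there says little. Where a library left a group with 1, that library was assumed to vary like the others.

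With all genes that had a count, 95 genes were called in LNCaP, 9 in PC3 and 72 for the mean effect, and 68, 15 and 71 for the differences 22Rv1 minus LNCaP, PC3 minus LNCaP and PC3 minus 22Rv1. With the replicate block the calls were 117 in LNCaP, 312 in 22Rv1, 20 in PC3, 99 for the mean effect, and 71, 13 and 73 for the same differences. The replicate block gave PMEPA1 -1.19 in 22Rv1 (adjusted p = 3.3e-06) and -0.11 in PC3, and turned TGFBR1 (0.0544) and SKIL (0.41) positive in 22Rv1. It changed no call of a member in a single line. Limma called 29 genes in LNCaP, 1 in PC3 and 13 for 22Rv1 minus LNCaP, with TGFBR1 at -0.0351 in LNCaP and PMEPA1 at -0.0198 in PC3. DESeq2 called 22 genes in LNCaP, 72 in 22Rv1, 18 for the mean effect and 11 for 22Rv1 minus LNCaP. Subtracting carried-over counts gave TGFBR2 -0.035 in 22Rv1.

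Leaving out single libraries, the genes called ranged from 12 (without LNCaP siMED12 replicate 2) to 55 in LNCaP, from 74 (without 22Rv1 siMED12 replicate 1) to 157 in 22Rv1, from 0 to 3 in PC3 (3 without PC3 siCtrl replicate 2) and from 8 (without PC3 siMED12 replicate 1) to 37 for the mean effect. For the differences they ranged from 1 (without LNCaP siCtrl replicate 3) to 17 for 22Rv1 minus LNCaP, from 1 to 5 for PC3 minus LNCaP (1 without LNCaP siCtrl replicate 2, 5 without PC3 siCtrl replicate 1) and from 3 (without 22Rv1 siCtrl replicate 2) to 31 (without 22Rv1 siMED12 replicate 1) for PC3 minus 22Rv1. Members called for 22Rv1 minus LNCaP ranged from 0 to 1. Log2 fold changes in LNCaP ranged from -1.27 to 0.42 for TGFB1, -0.58 to 0.81 for TGFBR1 and -0.72 to 0.22 for SKIL. In 22Rv1 they ranged from -0.15 to 0.56 for TGFB1, -0.0866 to 1.18 for TGFBR2, -0.65 to 0.0296 for SMAD7 and -1.91 to 0.27 for SKIL. In PC3 they ranged from -0.12 to 0.0855 for PMEPA1 and -0.63 to 0.25 for MED12. Between siCtrl groups, 22Rv1 against LNCaP ranged from -1.27 to 0.00369 for TGFBR2 and -0.18 to 0.45 for SKIL, and PC3 against 22Rv1 from -0.0319 to 0.50 for TGFBR1.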
